A study of Homo sapiens with 6 samples.

Results

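The Notch ligand gene JAG1 and 7 genes of the pathway it acts in (JAG2, NOTCH1, NOTCH2, NOTCH3, HES1, HEY1 and RBPJ) were followed in HT-1080 cells after exposure to an inhibitor of the kinase IRAK4. The 8 genes were picked by symbol, all 8 were among the 20683 genes listed in the files, and JAG1 was picked because it had been lower with the inhibitor in these same libraries. The JAG1 values of that contrast are therefore a description and carry no test. Of the 8 genes, 6 passed the filter on low counts that left 11216 genes for testing, and JAG2 and HEY1 did not.

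HT-1080 is an established human fibrosarcoma line. In 1 group 3 dishes received the IRAK4 inhibitor SLV-8472-01 for 24 h at 5 mM, as the labels write it (the unit was not verified here), and they were set against 3 dishes given 0.1% DMSO for 24 h. The series calls the 3 libraries of a group biological replicates, and p-values measure the spread between these libraries of 1 cell line. Each gene was read through a short product of a multiplex PCR panel, so a count is a level of that product, and counts of different genes are not compared with each other.

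Notch signalling passes between neighbouring cells. A ligand of the Jagged or Delta family on one cell binds a Notch receptor on the next, the receptor is cut by an ADAM protease and then by gamma-secretase, and the freed intracellular domain joins the DNA-binding protein RBPJ and a Mastermind coactivator on target genes. The best known targets are the HES and HEY repressors. The level of a ligand gene is not by itself a measure of Notch signalling. JAG1 is known to be transcribed in response to several pathways in other cell types.

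Promoter windows from 250 bases before to 50 bases after the transcript start were available from RefSeq (build GRCh38.p14) for 7 of the 8 genes. There were 11 windows in all, and the set used held none for HEY1. HES1 is shown because it is the best counted HES/HEY target among the 8 genes and because its window holds the core letters that RBPJ binds, and JAG1 because it had the largest difference in summed counts of the 8. Both are written 5′ to 3′ on the gene's own strand, and capitals mark TGGGAA, or TTCCCA on the other strand. The HES1 window is chr3:194135898-194136197 on the plus strand and the JAG1 window is chr20:10673950-10674249 on the minus strand.
HES1: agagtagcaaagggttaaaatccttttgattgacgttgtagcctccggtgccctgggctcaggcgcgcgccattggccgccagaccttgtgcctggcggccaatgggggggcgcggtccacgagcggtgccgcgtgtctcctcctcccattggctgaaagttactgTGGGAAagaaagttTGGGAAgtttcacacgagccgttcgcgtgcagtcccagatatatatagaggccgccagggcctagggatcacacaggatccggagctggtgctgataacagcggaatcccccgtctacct
JAG1: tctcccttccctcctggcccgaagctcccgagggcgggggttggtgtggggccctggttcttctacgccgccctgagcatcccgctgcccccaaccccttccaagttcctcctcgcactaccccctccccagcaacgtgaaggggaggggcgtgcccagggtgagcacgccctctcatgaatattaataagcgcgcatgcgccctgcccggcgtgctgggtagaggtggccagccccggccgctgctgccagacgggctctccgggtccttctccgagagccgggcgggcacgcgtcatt
The HES1 window held 2 copies of TGGGAA in the same orientation, beginning 84 and 70 bases before the transcript start, and the JAG1 window held none. These letters occurred in 2 of the 11 windows, against 24% of the 35116 RefSeq windows of the same length. A match describes letters and does not show a bound site. The letters CACNAG (reverse complement CTNGTG), a core of the sites that HES proteins bind, occurred 4 times in the HES1 window, 2 on each strand, and not in that of JAG1; 38% of all windows held them. The TEAD core GGAATG (reverse complement CATTCC) was in none of the 11 windows and in 14% of all windows. No match of one motif overlapped a match of another in the HES1 window.

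Library totals ranged from 9469603 to 11909708 counts with the inhibitor and from 9162281 to 13184553 counts with DMSO, and 13452 to 13913 genes had a count in a library. DMSO 3 stood apart from the other libraries. Its median absolute log2 difference was 0.331 from DMSO 1 and 0.265 from DMSO 2, against 0.137 to 0.148 among the inhibitor libraries and 0.171 between DMSO 1 and DMSO 2. Across 9216 genes, its deviation from the DMSO mean had a Spearman correlation of -0.463 with transcript GC content, against 0.505 for DMSO 1, values that the centring within a group links. Of 10 mesenchymal markers, 9 averaged over 1 CPM, with summed levels of 10354 to 10651 CPM with the inhibitor and 10546 to 11578 CPM with DMSO, while THY1 had 1 count in all. All 5 epithelial markers were under 1 CPM (summed 0.408 to 0.534 CPM with the inhibitor and 0.112 to 0.532 CPM with DMSO), with CDH1 and KRT5 at 0, and the 5 endothelial markers summed to 2.58 to 3.59 CPM with the inhibitor and 2.81 to 4.50 CPM with DMSO, with ERG at 0. The blood markers PTPRC and CD3E were at 0 in every library, and the list's 247 to 288 CPM with the inhibitor and 319 to 368 CPM with DMSO were almost all CD68, which averaged 265 and 340 CPM; CD68 is a lysosomal protein gene that many cell types express.

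Among the ligands, JAG1 was at about 0.5 of its DMSO level with the inhibitor. JAG1 encodes Jagged-1, a transmembrane ligand of Notch receptors. It had 215, 195 and 218 CPM (library-scaled counts, with TMM scaling) in inhibitor libraries 1 to 3, against 458, 371 and 428 CPM in DMSO libraries 1 to 3. The groups did not overlap, and the lowest DMSO value lay well above the highest inhibitor value. Of all tested genes, 11.8% were lower with the inhibitor without overlap. JAG1 was picked for its fall, so its separation follows from the choice and is no support. The means were 209 ± 12.9 CPM with the inhibitor and 419 ± 43.8 CPM with DMSO (SD, n = 3 each), a ratio of 0.500. The log2 fold change was -1.00 (SE 0.121), and 84 of the 11216 tested genes, 0.749%, had a lower one. In bulk RNA a lower level in every cell and a loss of JAG1-rich cells cannot be told apart. DMSO 3, the library that stood apart, had 103% of the JAG1 level of the other DMSO libraries, and without it the log2 fold change was -1.00 (SE 0.102). The choice of JAG1 rested on these libraries too, so that value is also a description.

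JAG2, which encodes the other Jagged ligand, was near the limit of detection. It had 2, 5 and 9 counts in inhibitor libraries 1 to 3, against 10, 19 and 2 counts in DMSO libraries 1 to 3. The groups overlapped, with the lowest counts of each group equal. The ratio of summed counts, 16 with the inhibitor to 31 with DMSO and scaled by library, was 0.543 with an exact 95% interval of 0.277 to 1.02, which covers counting error only. DMSO 3 had 20.2% of the mean JAG2 level of the other DMSO libraries.

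**Figure D1:**
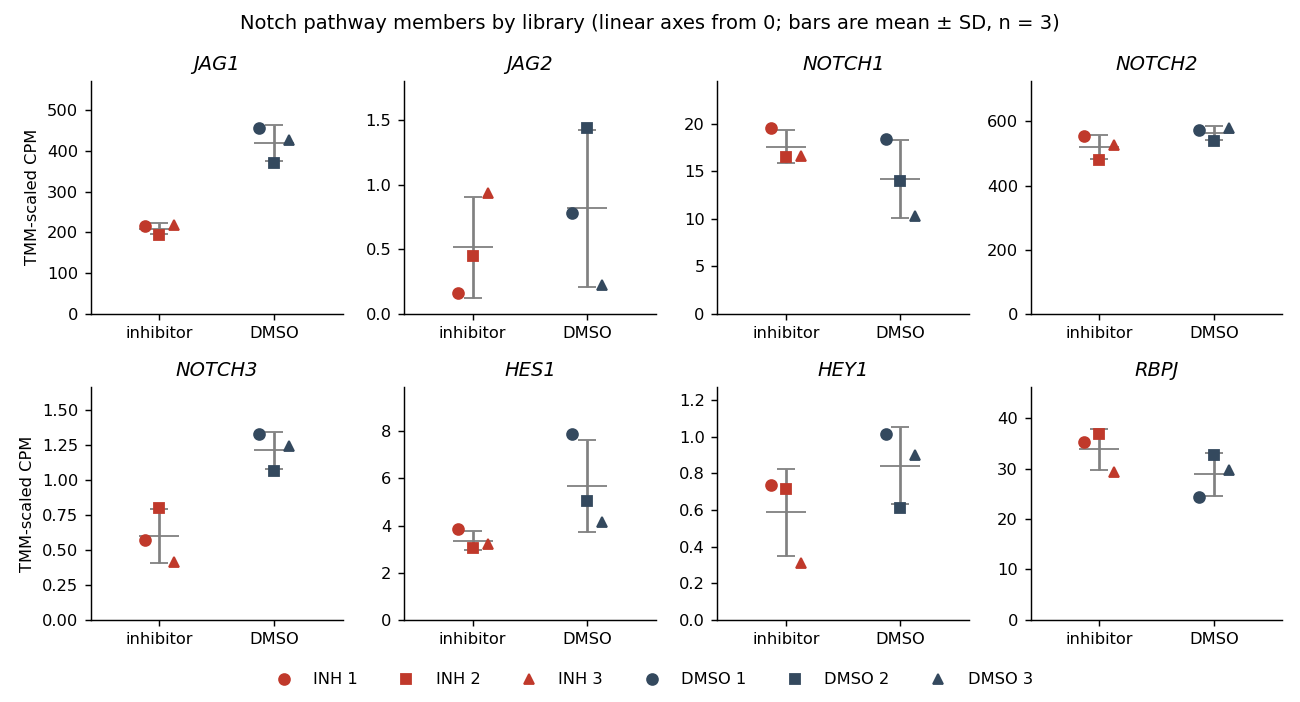
Each panel plots TMM-scaled CPM of 1 gene on a linear axis from 0, with the 3 inhibitor libraries left and the 3 DMSO libraries right; bars are mean ± SD (n = 3). In JAG1 the inhibitor libraries lie between 195 and 218 CPM, all below the DMSO libraries. In NOTCH3 and HES1 the inhibitor libraries also lie below the DMSO libraries without overlap. The groups overlap in JAG2, NOTCH1, NOTCH2, HEY1 and RBPJ. Of all tested genes, 11.8% were lower with the inhibitor without overlap.

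Among the receptors and nuclear genes no difference passed the threshold. None of the 5 tested genes other than JAG1 (NOTCH1, NOTCH2, NOTCH3, HES1 and RBPJ) passed edgeR's quasi-likelihood test (p adjusted by Benjamini-Hochberg over all tested genes, threshold 0.05), which 3.87% of all tested genes passed. At an unadjusted p under 0.05 there were 2, HES1 and NOTCH3, which passed the filter through its DMSO libraries alone, and 19.5% of all tested genes were under that value. In the same 5 genes neither DESeq2 nor limma-voom, which called 5.3% and 3.96% of all genes, made a call.

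NOTCH2 is a receptor of Jagged and Delta ligands and was the receptor with the most counts in this panel. It had 553, 480.2 and 528 CPM in inhibitor libraries 1 to 3, against 573, 539 and 581 CPM in DMSO libraries 1 to 3. The values overlapped between the groups, with inhibitor 2 lowest. Its log2 fold change was -0.12 (SE 0.110, edgeR adjusted p = 0.614), with a 95% interval of -0.35 to 0.12. NOTCH2NL, a partial copy of NOTCH2 with near-identical sequence, was listed apart with 906, 741 and 704 counts in the inhibitor libraries and 1060, 1169 and 895 counts in the DMSO libraries, and how reads were shared out between the copies is not stated.

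NOTCH1, the first receptor of the family, had 19.6, 16.5 and 16.6 CPM in inhibitor libraries 1 to 3, against 18.4, 13.9 and 10.2 CPM in DMSO libraries 1 to 3. The groups overlapped, and DMSO 3 was the lowest of all libraries. The log2 fold change was 0.30 (SE 0.192, edgeR adjusted p = 0.418), with a 95% interval of -0.11 to 0.71. The NOTCH1 transcript has 62.9% GC, more than 93.9% of tested genes, and DMSO 3 had 63.4% of the NOTCH1 level of the other DMSO libraries. Without DMSO 3 the log2 fold change was 0.11 (adjusted p = 0.642), without DMSO 1 it was 0.52 (adjusted p = 0.127), and after removal of the GC trend it was 0.37 (adjusted p = 0.175), all by edgeR.

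NOTCH3, a receptor best known from vascular smooth muscle and pericytes, was counted rarely. It had 7, 9 and 4 counts in inhibitor libraries 1 to 3, against 17, 14 and 11 counts in DMSO libraries 1 to 3. The scaled values did not overlap, at 0.571, 0.802 and 0.416 CPM with the inhibitor and 1.33, 1.06 and 1.24 CPM with DMSO. The log2 fold change of NOTCH3 was -0.99 (SE 0.391, edgeR adjusted p = 0.179). NOTCH3 reached the filter's level of 0.872 CPM in all 3 DMSO libraries and in no inhibitor library, so it entered the test through the group in which it was higher, and its separation is no support. Its summed counts of 20 with the inhibitor and 42 with DMSO gave a scaled ratio of 0.501 with an exact 95% interval of 0.279 to 0.873 for counting error only.

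RBPJ encodes the DNA-binding protein on which the freed Notch domain assembles, and which represses the same genes without it. RBPJ had 35.3, 37.0 and 29.3 CPM in inhibitor libraries 1 to 3, against 24.3, 32.8 and 29.7 CPM in DMSO libraries 1 to 3. The groups overlapped, with DMSO 1 lowest. Its log2 fold change was 0.23 (SE 0.150, edgeR adjusted p = 0.428), with a 95% interval of -0.09 to 0.55.

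Of the HES and HEY targets, HES1, a basic helix-loop-helix repressor and the gene whose promoter is printed above with its 2 copies of TGGGAA, gave the larger counts. It had 3.84, 3.03 and 3.22 CPM in inhibitor libraries 1 to 3, from 47, 34 and 31 counts, against 7.89, 5.02 and 4.16 CPM in DMSO libraries 1 to 3, from 101, 66 and 37 counts. The groups did not overlap, but the highest inhibitor value and the lowest DMSO value, that of DMSO 3, were close. Of all tested genes, 11.8% were lower with the inhibitor without overlap. The means of HES1 were 3.36 ± 0.422 CPM with the inhibitor and 5.69 ± 1.95 CPM with DMSO (SD, n = 3 each). The log2 fold change of HES1 was -0.77 (SE 0.254), and it did not pass (edgeR adjusted p = 0.109; 95% interval -1.32 to -0.23 before adjustment).

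The HES1 result turned on single DMSO libraries and on the processing. Without DMSO 3 its log2 fold change was -0.95 (SE 0.233, edgeR adjusted p = 0.00364), a fit in which 21.9% of all tested genes were called, and without DMSO 1 it was -0.46 (SE 0.249, adjusted p = 0.330). DMSO 3 had 64.5% of the HES1 level of the other DMSO libraries. The HES1 transcript has 49.9% GC, more than 57.1% of tested genes, and with the GC trend removed HES1 was at -0.78 (adjusted p = 0.0779). Beyond these alternatives, it was also called in the fit without a filter on low counts (adjusted p = 0.0220, with 5.32% of genes called) and by limma-voom with library quality weights (adjusted p = 0.0171, with 23.2% of genes called).

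HEY1, a related repressor that Notch induces in vessels and bone, had 9, 8 and 3 counts in inhibitor libraries 1 to 3, against 13, 8 and 8 counts in DMSO libraries 1 to 3. The groups overlapped. The scaled ratio of summed counts, 20 with the inhibitor to 29 with DMSO, was 0.726 with an exact 95% interval of 0.389 to 1.33, which covers counting error only and includes 1.

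**Figure D2:**
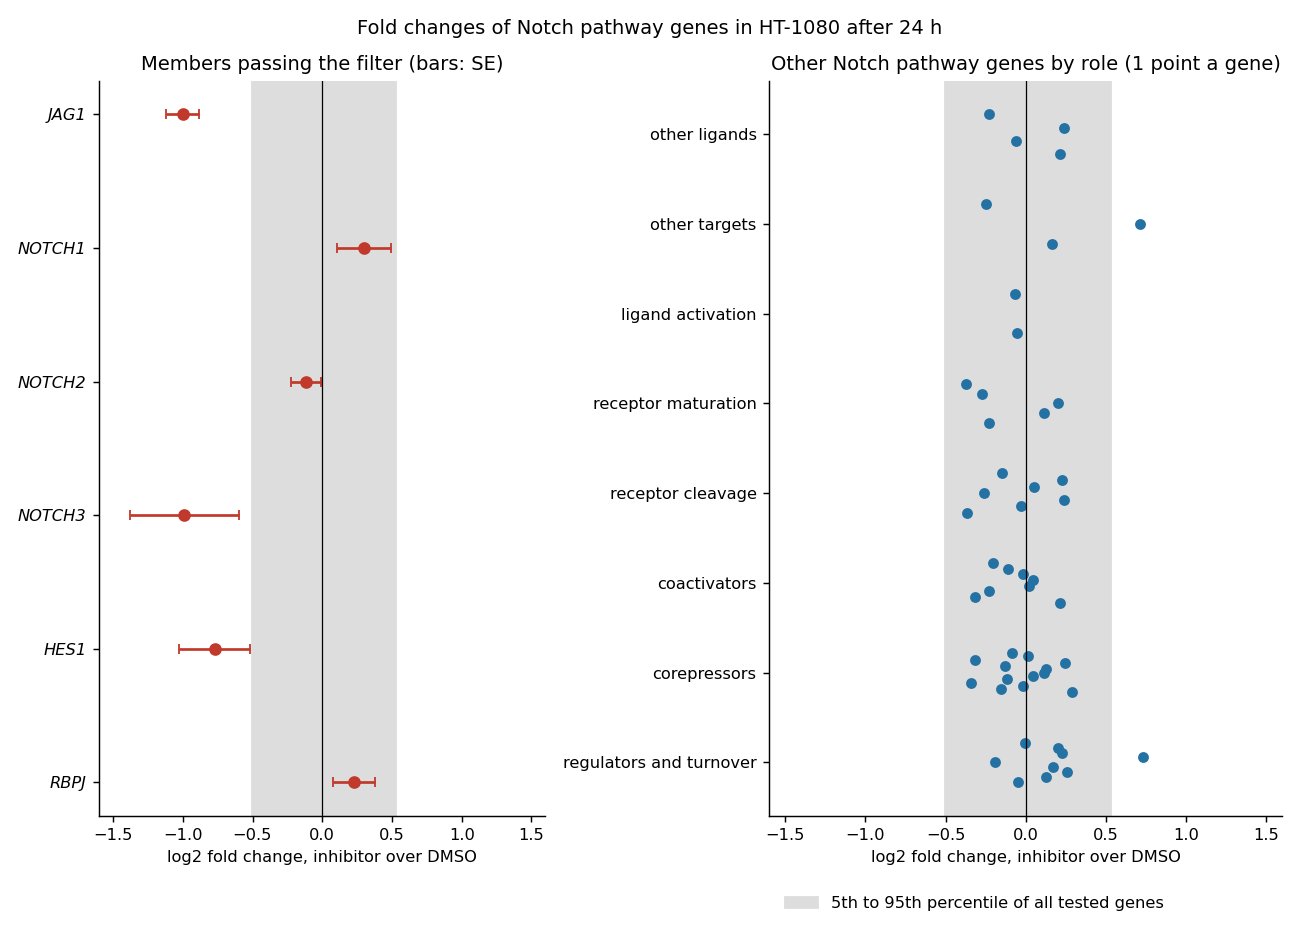
Log2 fold changes of inhibitor over DMSO (edgeR), at left for the 6 genes that passed the filter with bars of 1 SE, at right for 51 other Notch pathway genes by role, 1 point a gene. The grey band spans the 5th to 95th percentile of all tested genes, -0.50 to 0.53; JAG1, NOTCH3 and HES1 lie to its left, and of the others DTX3L and HES6, a HES-family gene named after its value was seen, lie to its right.

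The rest of the pathway was read from a list of 66 other genes, of which 51 passed the filter and 6 had no count in any library (DLL4, DLK1, NOTCH4, HES5, NEURL1 and MFNG). A count of 0 allows a level of up to 0.228 to 0.337 CPM, depending on the library. None of the 51 passed edgeR's test, where 3.87% of all tested genes did, and 6 had an unadjusted p under 0.05, where 19.5% of all tested genes had one. DESeq2 called 1 of them, DTX3L, with 5.3% of all genes called, and limma-voom called none, with 3.96%. The median log2 fold change of the 51 was -0.02, against 0.00 over all tested genes. Of the 51, 5 were lower and 3 higher without overlap between the groups, or 15.7%, against 25.5% of all tested genes.

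Among the other ligands, DNER, a noncanonical ligand best known from neurons, had the most counts. It had 197, 184 and 201 CPM in inhibitor libraries 1 to 3, against 236, 209 and 238 CPM in DMSO libraries 1 to 3. All inhibitor values lay below all DMSO values by a small margin, and its log2 fold change was -0.23 (SE 0.115, edgeR adjusted p = 0.292). The Delta ligand genes DLL1 and DLL3, named after their values were seen, were at 0.21 (SE 0.374) and -0.06 (SE 0.214), and neither passed. MIB1, the ubiquitin ligase that primes ligands for endocytosis, averaged 90.0 ± 0.200 CPM with the inhibitor and 93.5 ± 17.0 CPM with DMSO (SD, n = 3 each), a difference within the spread of the DMSO libraries.

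No gene of receptor maturation or cleavage passed the test. FURIN, the convertase that cuts the Notch precursor, had 114, 97.0 and 111 CPM in inhibitor libraries 1 to 3, against 158, 140.4 and 117 CPM in DMSO libraries 1 to 3, and its log2 fold change was -0.37 (edgeR SE 0.136, adjusted p = 0.146). ADAM10, the protease of the first ligand-induced cut, had 79.0, 81.6 and 87.3 CPM in inhibitor libraries 1 to 3, against 101, 116 and 103 CPM in DMSO libraries 1 to 3, and was at -0.37 as well (SE 0.121, edgeR adjusted p = 0.108). NCSTN, the nicastrin subunit of gamma-secretase, had 220.0, 208 and 208 CPM in inhibitor libraries 1 to 3, against 238, 251 and 272 CPM in DMSO libraries 1 to 3, at -0.26 (SE 0.113, adjusted p = 0.225). In these 3 genes the inhibitor values lay below the DMSO values without overlap, as in 11.8% of all tested genes, and none passed. ADAM10 passed with the GC trend removed (adjusted p = 0.0492, with 6.21% of genes called), and ADAM10 and FURIN passed without DMSO 3 (adjusted p = 0.00481 and 0.000857, with 21.9% of genes called). ADAM10 was named after its values were seen.

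Nuclear cofactors showed no call in the main comparison. SNW1, which the Notch complex uses as SKIP, averaged 197 ± 11.5 CPM with the inhibitor and 194 ± 36.0 CPM with DMSO. AES, a short Groucho-family protein, averaged 326 ± 20.0 CPM with the inhibitor and 323 ± 41.0 CPM with DMSO (SD, n = 3 each for both genes). Of the corepressors, SPEN was at 0.29 (SE 0.132, edgeR adjusted p = 0.243) and CIR1 at -0.34 (SE 0.143, adjusted p = 0.207), both named after their values were seen. HES4 was the target outside the 8 genes with the most counts. It averaged 5.17 ± 0.701 CPM with the inhibitor and 4.60 ± 0.179 CPM with DMSO (SD, n = 3 each). HES6, named after its value was seen, had 22, 12 and 19 counts in inhibitor libraries 1 to 3. Its counts in DMSO libraries 1 to 3 were 15, 11 and 8. The scaled values of HES6 overlapped between the groups. Its log2 fold change was 0.71 (SE 0.354), and it did not pass (edgeR adjusted p = 0.285). NUMB, an endocytic antagonist of Notch receptors, averaged 141 ± 3.86 CPM with the inhibitor and 145 ± 15.0 CPM with DMSO, with a log2 fold change of -0.05 (edgeR SE 0.121, adjusted p = 0.874).

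DTX3L came nearest to the threshold in the list and was named after its values were seen. It encodes a deltex-family ubiquitin ligase that partners with PARP9 and is known as an interferon-induced gene. It had 44.7, 36.6 and 24.1 CPM in inhibitor libraries 1 to 3, against 19.9, 19.4 and 24.6 CPM in DMSO libraries 1 to 3. The groups overlapped through inhibitor 3 and DMSO 3, which had nearly the same level. The log2 fold change was 0.73 (SE 0.196, edgeR adjusted p = 0.0541). It passed without inhibitor 3 at 0.94 (adjusted p = 0.0210, with 1.32% of genes called) and without DMSO 3 at 0.83 (adjusted p = 0.000356, with 21.9% of genes called). It did not pass without inhibitor 1 at 0.52 (edgeR adjusted p = 0.285), inhibitor 2 at 0.70 (0.239), DMSO 1 at 0.68 (0.0745) or DMSO 2 at 0.67 (0.212). With every library kept, DTX3L passed edgeR with library totals only (adjusted p = 0.0367), without a filter (0.000361) and with the GC trend removed (0.0350). It also passed DESeq2 (adjusted p = 0.0158) and limma-voom with quality weights (0.000196). It did not pass edgeR with DESeq2 size factors (0.0550), a mean count of at least 50 (0.0632) or a replicate block (0.0632), nor plain limma-voom (0.0676).

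**Figure D3:**
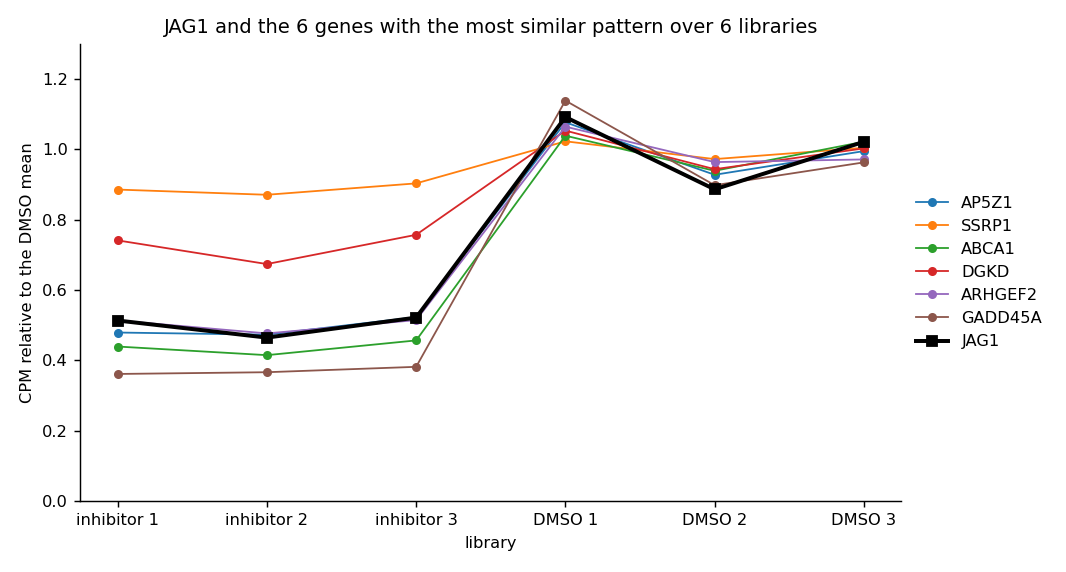
CPM of JAG1 and of the 6 genes with the highest Pearson correlation with it, each divided by its own DMSO mean, in the 3 inhibitor libraries (left) and the 3 DMSO libraries (right); lines join the values of 1 gene and imply no order. All 7 genes are lower in every inhibitor library than in any DMSO library, with GADD45A deepest at 0.369 of its DMSO mean and SSRP1 at 0.887. JAG1 was picked for its fall and the 6 genes for their likeness to it, so this separation follows from the choice and is no support.

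The genes whose pattern over the 6 libraries was most like that of JAG1 were AP5Z1, SSRP1, ABCA1, DGKD, ARHGEF2 and GADD45A, among 9061 genes with a mean of at least 5 CPM. Their Pearson correlations with JAG1 on the log2 scale ran from 0.993 to 0.995, and 143 genes were above 0.95. The 6 points share the same 2 groups, library depths and scaling, so these values describe likeness and no more. The ratios of the inhibitor to the DMSO mean were 0.491 for AP5Z1, a subunit of an endosomal adaptor complex, 0.437 for ABCA1, a cholesterol exporter, and 0.501 for ARHGEF2. DGKD, a diacylglycerol kinase, was at 0.724, and SSRP1, a subunit of a histone chaperone, at 0.887, while GADD45A, a DNA damage-inducible gene, was at 0.369.

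**Figure D4:**
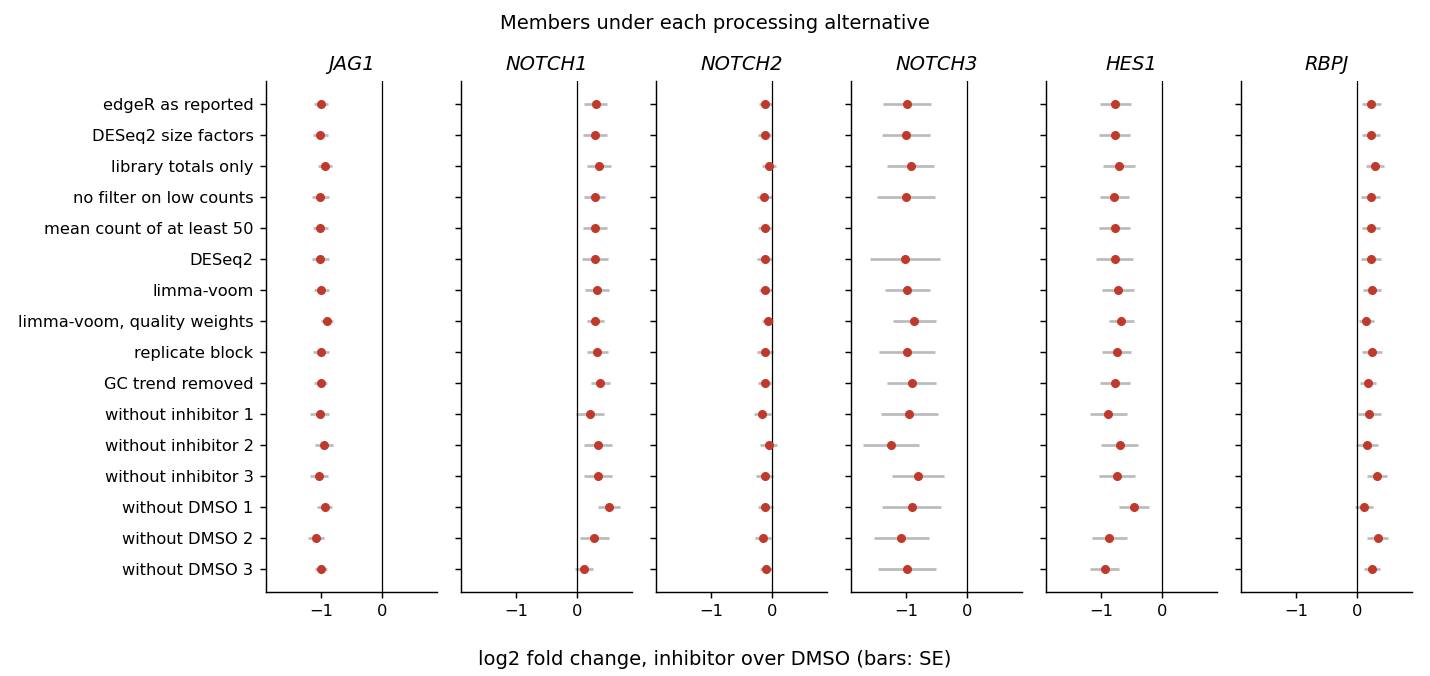
Log2 fold changes of inhibitor over DMSO with bars of 1 SE, for the 6 genes that passed the filter, under the reported edgeR fit and each processing alternative; NOTCH3 has no value with a mean count of at least 50. JAG1 stays between -1.08 and -0.90, while HES1 ranges from -0.95 without DMSO 3 to -0.46 without DMSO 1. JAG1 was picked for its fall in these same libraries, so its narrow range is a description and no support.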

How the data were processed

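RNA from 6 dishes was amplified with a multiplex PCR panel (Ion AmpliSeq Transcriptome) and read on an Ion Torrent Proton instrument, per the labels' protocols. The deposited values are unnormalized counts per symbol. HTSeq, DESeq2 1.20.0 and hg19 appear without a role in the submitters' processing notes, which name no aligner. Groups and replicate numbers came from the titles. In edgeR 4.0.16 (R 4.3.3), genes were filtered by filterByExpr (minimum count 10, minimum total 15), scaled by TMM and tested on group alone, with Benjamini-Hochberg adjustment over every tested gene. SEs were derived from the F statistic. A prior count of 2 entered log2 CPM. Alternatives used DESeq2 1.42.0, limma 3.58.1 and local regression on transcript GC (span 0.5, GC known for 99.2% of tested genes). The fits were tested on simulated data that had no GC trend between libraries. There the reported fit recovered 42.4% of 1.5-fold and 80.3% of 2-fold changes, so real changes of that size can be missed. Members, lists and alternatives were chosen with earlier results of these data known. The naming rule took the 8 genes, the best counted gene of each role, any list gene past the threshold and the 6 genes most like JAG1; others are marked. The value of 1 blood marker is not reported here. Labels name no molecular identifiers, so reads of a product need not be separate molecules. Chi-square per degree of freedom between replicates was 5.17 to 36.7, above counting noise for each pair.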

Additional observations from a re-analysis of the deposited data

How the results depend on the processing

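JAG1 kept its direction in all 15 alternatives, with log2 fold changes of -1.08 to -0.90, and between -1.08 and -0.94 with 1 library left out. JAG1 was picked for its fall in these same libraries, so this agreement between fits is no support. Among the other 7 Notch genes the count of calls was 0 in the reported fit. It was 1, HES1, without a filter on low counts and with library quality weights, and 0 to 1 with 1 library left out. In the list of 66 other Notch genes it was 0 in the reported fit, 1 with library totals only, without a filter or by DESeq2, 2 with the GC trend removed, 9 with library quality weights and 0 to 9 with 1 library left out, the 9 being without DMSO 3. Over all genes, 434 were called in the reported fit, 498 with library totals only, 594 by DESeq2, 831 without a filter, 697 with the GC trend removed, 2606 with library quality weights, and 99 (without inhibitor 2) to 2496 (without DMSO 3) with 1 library left out. Without inhibitor 1, inhibitor 3 or DMSO 2 there were 125, 150 and 185. The causes of these differences between fits were not tested. Of all tested genes, 3.87% were called in the reported fit, 5.3% by DESeq2, 5.32% without a filter and 6.21% with the GC trend removed. The share was 23.2% with library quality weights, 21.9% without DMSO 3 and 1.32% without inhibitor 3. The 9 calls of the list came from 51 tested genes with quality weights and from 52 without DMSO 3. With a replicate block, 328 genes were called, JAG1 was at -1.00, and HES1 did not pass (adjusted p = 0.102). Same-numbered libraries did not deviate together (r = -0.0414, -0.0378 and -0.0882). These deviations are centred within small groups, so they cannot show whether the numbers pair the libraries. JAG2, NOTCH3 and HEY1 had at most 19 counts in a library, so counting error is wide for these genes.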
